A study of Mus musculus with 30 samples.

Results

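The 10 genes described here encode hormones and secreted proteins of fat cells (Adipoq, Retn, Cfd and Lep) and proteins that take up, bind, store or handle lipid in them (Plin1, Cidec, Fabp4, Lpl, Pparg and Pck1). They are 10 of 50686 genes counted in 30 thyroids of C57BL/6 mice by poly(A) RNA sequencing. The list was selected on results from counts of these same 30 libraries, with no cut-off and no single comparison recorded for it. The fold changes and calls below are therefore a description of these genes, and nothing is supported with them.

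The libraries fell into 10 groups of 3. Of these, 8 compared FAD4T with wild-type (WT) mice in males and females of 2 and 8 months. The last pair of groups held 18-month wild-type males and, listed beside them in the series design, a further set of 2-month wild-type males with title numbers 4 to 6. The 2-month wild-type males listed beside the FAD4T males carry the numbers 1 to 3. All groups share the strain, and no treatment is given. The labels do not state what FAD4T stands for or which alleles it carries, nor the litters, diets or dissection days. The design counts 3 mice per group, so each test sets a difference against the spread between mice within groups. That spread was estimated over all groups of a fit, which were more than those compared except at 18 months. Totals were 14083958 to 20256049 counts per library, and the 10 genes took 0.0288% to 0.428% of them. Tg, which encodes thyroglobulin and marks thyroid follicle cells, took 4.64% to 27.02%.

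White adipocytes hold triglyceride in a large droplet coated by perilipin, fill it with fatty acids that lipoprotein lipase frees from circulating lipoproteins, and secrete hormones that report on energy stores. Brown adipocytes share the nuclear receptor PPAR-gamma, the droplet coat and the fatty acid binding protein, but burn lipid through the uncoupling protein Ucp1. The mouse thyroid lies on the trachea next to cervical fat, muscle and thymus, which are not follicle tissue. In whole tissue, fewer fat cells and less RNA per fat cell cannot be told apart.

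The name "white adipocyte" could not be separated from brown fat in these data. Ucp1 lay at 6.07 to 246 CPM (normalised counts, scaled to the TMM-corrected total of each library) and Cidea, also typical of brown fat, at 3.72 to 143 CPM over all 30 libraries. Of the 8 genes listed as typical of white depots, the homeobox genes Hoxc8, Hoxc9 and Hoxc10 reached at most 0.407, 0.294 and 0.224 CPM and had no count in 15, 20 and 20 libraries. Wt1, a transcription factor of visceral fat, reached at most 0.640 CPM. Slc7a10, an amino acid transporter of white adipocytes, lay at 1.25 to 7.30 CPM. The others of the list were higher for Nnat, the gene of neuronatin, at 25.8 to 89.7 CPM, and for Agt, the gene of angiotensinogen, at 3.82 to 17.4 CPM, and low for Tcf21, a transcription factor of white fat progenitors, with a median of 1.21 CPM. The brown-depot gene Zic1 was also low, at no more than 2.97 CPM and with no count in 14 libraries.

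The 10 genes were detected in every library, the lowest count being 24, for Lep, and all 10 passed the filter on low counts. Per kilobase of exon, mean levels over the 30 libraries were 436 CPM for Cfd and 140.2 for Fabp4, followed by 63.4 for Adipoq, 40.8 for Pck1, 37.8 for Cidec, 26.1 for Retn, 22.0 for Lpl, 17.4 for Plin1, 6.10 for Pparg and 2.97 for Lep. With the length of the principal transcript in place of all exons, Fabp4 stood first at 702 CPM per kilobase and Cfd next, again at 436. Lep was last on both scales. The spread between libraries was widest for Pck1, whose highest CPM was 42.0 times its lowest, then Lep at 17.1 times. It was narrowest for Pparg at 5.81 times. The wild-type male of 18 months with number 1 was the lowest of the 30 libraries for 9 of the 10 genes. The exception was Lep, which was lowest at 1.62 CPM in wild-type female number 2 of 8 months.

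**Figure D1:**
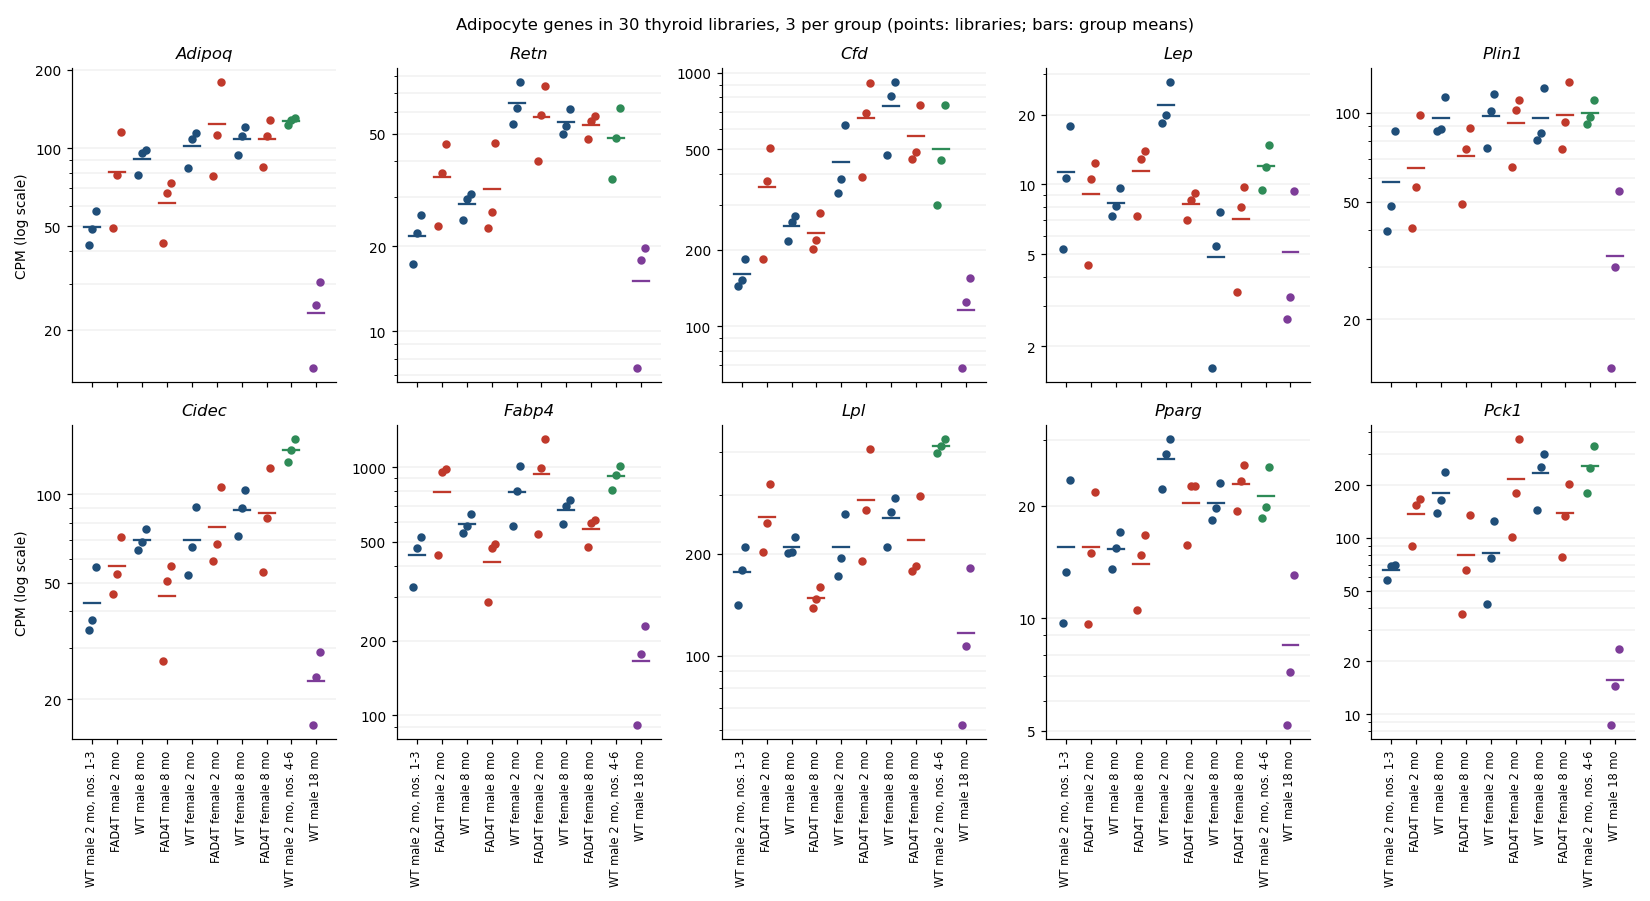
Level of each of the 10 genes in each of 30 thyroid libraries, in CPM on a log scale, by group (3 points per group, horizontal bar for the mean; blue wild type, red FAD4T, green the 2-month wild-type males numbered 4 to 6, purple 18-month males). The 18-month group has the lowest mean for all genes but Lep. All of its points lie under the other 27 libraries for 3 of the 10 genes, Adipoq (14.3 to 30.5 CPM), Fabp4 and Pck1. The green points lie above the 2-month wild-type males numbered 1 to 3 for all but Lep and Pparg. How many of all genes were so apart was not counted.

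Over the 30 libraries 9 of the 10 genes followed one another. As a description, Pearson's r of log2(CPM + 1) with the mean of the other 9 was 0.97 for Adipoq, 0.95 for Fabp4, 0.91 for Plin1, 0.90 for Cidec, 0.88 for Retn and Pparg, 0.84 for Cfd, 0.83 for Pck1 and 0.82 for Lpl. For Lep it was 0.34. These points share library depth and scaling. With group means removed, r stayed at 0.67 or more for the 9 genes and was 0.45 for Lep.

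The sequences just before the RefSeq transcription starts (250 bases, GRCm38.p6, which matches the build in the count files' headers) are shown for 4 genes. Adipoq followed the others most closely, Lep did so least, and Pck1 varied most. Plin1, at no end of this range, was picked because it holds the C/EBP motif at 2 places. Pparg, not printed, does so too. Capitals mark TTGCNNAA, a form of the site of C/EBP factors, which act with PPAR-gamma in adipocyte differentiation; the search used exact matches on both strands. Each is printed 5′ to 3′ on the gene's strand.
Adipoq, chr16:23146286-23146535, plus strand: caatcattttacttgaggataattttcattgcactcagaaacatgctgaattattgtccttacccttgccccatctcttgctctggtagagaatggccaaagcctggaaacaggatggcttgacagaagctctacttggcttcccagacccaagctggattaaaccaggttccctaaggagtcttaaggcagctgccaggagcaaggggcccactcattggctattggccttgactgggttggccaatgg
Plin1, chr7:79732777-79733026, minus strand: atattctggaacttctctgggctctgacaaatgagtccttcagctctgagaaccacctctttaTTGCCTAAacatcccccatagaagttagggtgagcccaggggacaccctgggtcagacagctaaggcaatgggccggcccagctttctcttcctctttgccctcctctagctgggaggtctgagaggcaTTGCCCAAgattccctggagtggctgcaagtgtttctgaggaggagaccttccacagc
Lep, chr6:29059971-29060220, plus strand: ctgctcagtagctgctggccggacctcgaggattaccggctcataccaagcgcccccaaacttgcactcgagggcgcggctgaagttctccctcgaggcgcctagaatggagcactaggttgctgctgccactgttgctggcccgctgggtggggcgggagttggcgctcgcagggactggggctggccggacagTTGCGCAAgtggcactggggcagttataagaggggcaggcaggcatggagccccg
Pck1, chr2:173152823-173153072, plus strand: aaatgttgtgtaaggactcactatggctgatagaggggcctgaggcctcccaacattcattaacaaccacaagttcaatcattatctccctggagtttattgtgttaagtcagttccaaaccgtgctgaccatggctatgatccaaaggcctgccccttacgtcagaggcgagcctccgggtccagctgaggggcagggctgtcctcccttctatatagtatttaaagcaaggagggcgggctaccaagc
RefSeq windows were at hand for 8 of the 10 genes, 11 windows in all because Cidec and Pparg have several starts. Fabp4 and Lpl had none. The motif stood in 4 of 11 windows, those of Cidec, Lep, Plin1 and 1 of Pparg, and in 9.56% of 32851 windows of all genes. Counted from the base before the start as -1, its first base lay at -55 in Lep, -187 and -58 in Plin1, -198 in Cidec and -215 and -16 in Pparg. The response element of PPAR-gamma with its partner RXR, a direct repeat of AGGTCA with 1 base between the copies, searched on both strands with up to 2 mismatches, was in 0 of 11 windows and in 3.24% of all. No motif overlapped the other. A match is a description of letters, and these windows hold no binding data. Lep, with its motif, followed the other genes least, and Adipoq, without one in this window, most.

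The question of age was put to wild-type males. In thyroids of 18 months the 10 genes were lower than in the 2-month males numbered 4 to 6. The median log2 fold change of the 10 was -2.01, against -0.01 over all 16283 genes tested. The CPM of the groups did not overlap for any of the 10, but how many of all genes were likewise apart was not counted. By edgeR's quasi-likelihood test with adjustment over all genes, 8 of 10 were called lower, where 18.8% of all genes were called lower. The list's choice used these libraries, so the count is given as a description only. Lep and Plin1 missed the threshold of edgeR, which had 7552 genes at an unadjusted p under 0.05. DESeq2, a second test, called all 10, and 6259 of all genes.

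Among the hormones, Adipoq, which encodes adiponectin, the hormone that raises insulin sensitivity, stood at 122, 130.2 and 129 CPM in the 2-month males numbered 4 to 6 and at 14.3, 30.5 and 24.9 CPM at 18 months. All 3 older thyroids lay under every one of the other 27 libraries, a pattern of 3 of the 10 genes that was not counted over all genes. The log2 fold change was -2.48 ± 0.27 (SE; edgeR, adjusted p = 0.00134). Retn, the gene of resistin, a white fat hormone of mice, stood at 62.0, 48.6 and 34.7 CPM at 2 months and 7.44, 19.8 and 17.9 CPM at 18 months, -1.72 ± 0.42 (SE; edgeR, adjusted p = 0.0230). Cfd, the gene of adipsin, a serine protease that is also complement factor D, stood at 748, 454 and 302 CPM at 2 months against 68.5, 154 and 124.5 CPM, -2.15 ± 0.45 (SE; edgeR, adjusted p = 0.0142). Both genes had an 18-month thyroid within the range of the 2-month males numbered 1 to 3. Lep, the gene of leptin, the hormone whose level follows fat stores, stood at 14.8, 11.9 and 9.43 CPM at 2 months and 2.62, 3.27 and 9.37 CPM at 18 months. The highest old thyroid was next to the lowest young one, and the fold change of -1.29 ± 0.48 (SE; edgeR, adjusted p = 0.0742) missed the threshold.

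Of the droplet proteins, Cidec, which joins droplets into larger ones, stood at 154.5, 141 and 129 CPM in the 2-month males numbered 4 to 6 and at 16.4, 29.1 and 23.9 CPM at 18 months. Its fold change, -2.65 ± 0.21 (SE; edgeR, adjusted p = 0.000706), had the smallest adjusted p of the 10. Plin1, the gene of perilipin, which guards the droplet against lipases, stood at 111, 97.1 and 91.4 CPM at 2 months and 13.7, 30.0 and 54.2 CPM at 18 months. Its 18-month thyroids were farther apart than those of Cidec, at 32.6 ± 20.4 against 23.1 ± 6.38 CPM (SD, n = 3 each). The change of -1.65 ± 0.51 (SE; edgeR, adjusted p = 0.0593) was not called.

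Of the lipid uptake and binding genes, Fabp4, the fatty acid binding protein of fat cells, stood at 1010, 808 and 932 CPM in the 2-month males numbered 4 to 6 and 91.7, 176 and 230.1 CPM at 18 months, -2.50 ± 0.32 (SE; edgeR, adjusted p = 0.00173). Like Adipoq, it was lower in the old thyroids than in the other 27 libraries. Lpl, the gene of lipoprotein lipase, which muscle also makes, stood at 416, 399 and 438 CPM against 62.4, 182 and 106 CPM, -1.87 ± 0.38 (SE; edgeR, adjusted p = 0.0120). Pparg, the gene of PPAR-gamma, stood at 25.3, 19.9 and 18.6 CPM against 5.19, 7.20 and 13.1 CPM, -1.36 ± 0.32 (SE; edgeR, adjusted p = 0.0138). Pck1 encodes the enzyme that fat uses to make glycerol for triglyceride, and liver and kidney to make glucose. It stood at 180.2, 249 and 335 CPM against 8.69, 14.5 and 23.4 CPM, with -4.08 ± 0.45 (SE; edgeR, adjusted p = 0.00231) the largest change of the 10, and was likewise under all other 27 libraries.

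Single libraries decided the calls near the threshold. Retn was not called without 2-month male number 4 (edgeR, adjusted p = 0.0600), number 5 (0.0717) or 18-month male number 3 (0.0695). Without 18-month male number 3, the highest of its group for Lep, Plin1, Fabp4, Pparg and Pck1, Cfd was not called (adjusted p = 0.0535) while Lep (-2.05, adjusted p = 0.00346) and Plin1 (-2.21, adjusted p = 0.0114) were. Plin1 was also called without 18-month male number 1 (-1.28, adjusted p = 0.0106), and Pparg was not without number 2 (adjusted p = 0.0513). The fold changes of the 10 genes kept their sign in every such fit.

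The 2 sets of 2-month wild-type males have the same label apart from the number, and they differed in these genes. Males numbered 4 to 6 were higher than 1 to 3 for all 10, with a median log2 difference of 1.19 against -0.02 over 18799 genes. In a fit of all 30 libraries 7 of the 10 were called higher, where 10.2% of all genes were. Over all genes 1910 were higher and 2153 lower, and 1027 and 3082 with scaling by library totals alone, under which 6 of the 10 were called. Cidec stood at 37.3, 56.5 and 34.4 CPM in numbers 1 to 3, well under the 129 to 154.5 CPM of numbers 4 to 6, a difference of 1.73 ± 0.31 (SE; edgeR, adjusted p = 0.000392). Adipoq stood at 48.7, 57.4 and 42.3 CPM there, a difference of 1.36 ± 0.30 (SE; edgeR, adjusted p = 0.00212). Pck1 stood at 69.3, 70.2 and 57.5 CPM, a difference of 1.96 ± 0.52 (SE; edgeR, adjusted p = 0.00968). Cfd (1.65, adjusted p = 0.00363), Lpl (1.24, adjusted p = 0.00430), Retn (1.15, adjusted p = 0.0101) and Fabp4 (1.05, adjusted p = 0.0229) were the other genes called by edgeR. Fabp4 was not called without male number 3 (adjusted p = 0.0853) or number 6 (adjusted p = 0.0523). Lep differed by 0.10 ± 0.50, Pparg by 0.46 ± 0.31 and Plin1 by 0.78 ± 0.38 (SE), none called (edgeR, adjusted p = 0.916, 0.306 and 0.151).

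The values for age depended on which young males stood for 2 months. Against numbers 1 to 3, the 10 genes were again lower at 18 months, but with a median of -0.85, and 1 was called, Pck1 (-2.06; edgeR, adjusted p = 0.0216), where 2.01% of all genes were called lower. Against all 6 young males 3 were called, Pck1 (-3.38, adjusted p = 0.0366), Fabp4 (-2.04, adjusted p = 0.0180) and Adipoq (-1.93, adjusted p = 0.0387), with a median of -1.43, where 4.06% of all genes were called lower. For Adipoq, Cidec, Fabp4 and Pck1, every 18-month library was lower than every one of numbers 1 to 3. How many of all genes were likewise apart was not counted.

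**Figure D2:**
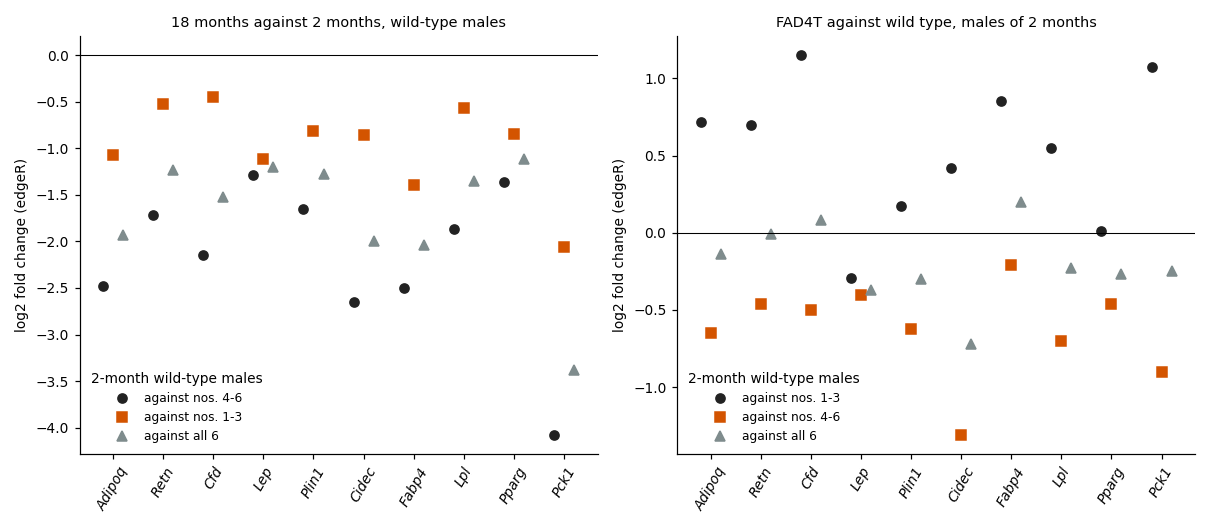
log2 fold change of each gene for 18 against 2 months in wild-type males (left) and for FAD4T against wild type in males of 2 months (right), with either set of 2-month wild-type males or all 6 as the young wild type. On the left every point is under 0 and the orange squares (numbers 1 to 3) are nearest to it, with a median of -0.85; on the right most points are above 0 against numbers 1 to 3 and all are under it against numbers 4 to 6.

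Other genes moved in the same samples. Skeletal muscle genes summed to 37.1 to 4429 CPM in numbers 1 to 3, 5769 to 43907 CPM in numbers 4 to 6 and 4356 to 29729 CPM at 18 months, so muscle transcripts were high on both sides of the 18-month comparison and differed between the sets of young males. Liver genes, a list that includes Cyp2e1, which fat also makes, summed to 57.3 to 66.4 CPM in numbers 1 to 3, 196 to 360 CPM in numbers 4 to 6 and 10.6 to 18.1 CPM at 18 months, while the liver-defining Alb was at no more than 8.52 CPM in any of these 9 libraries. Endothelial genes were called lower at 18 months for 6 of 9, with sums of 376 to 543 CPM against 643 to 752 CPM in numbers 4 to 6. Of fat stroma genes 1 of 9 was called lower, of macrophage genes 2 of 8 higher and 1 lower, and of thyrocyte genes 2 of 9 higher and 1 lower. Of all genes 18.8% were called lower in this comparison, and the share called higher is not reported here. The kidney list had 1 and the thymocyte list 2 testable genes, 1 of each called higher. The part of all these in the values of the 10 genes was not tested.

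Of 26 further lipid storage genes, 16 were called lower and 1 higher at 18 months (edgeR, median -1.12), where 18.8% of all genes were called lower. Adig, a small adipocyte membrane protein, fell by 2.65, and Pnpla2, the lipase that starts droplet breakdown, by 2.11 on the log2 scale (edgeR, adjusted p = 0.00138 and 0.000706). Bscl2, the gene of seipin, which shapes nascent droplets, fell by 1.38 (edgeR, adjusted p = 0.00137). The gene that rose was Gpam, the acyltransferase of the first step of triglyceride synthesis, by 1.79 (edgeR, adjusted p = 0.0407). Per kilobase of exon the highest of the list were Scd1 at 603 CPM, a desaturase, Car3 at 242, a carbonic anhydrase, Pnpla2 at 78.8 and Gpd1 at 77.3, which makes glycerol phosphate. Scd1 (-1.05) and Car3 (-1.54) were not called at 18 months (edgeR, adjusted p = 0.245 and 0.231), and Gpd1 fell by 1.37 (adjusted p = 0.0342). Between the sets of young males 12 of 26 were called higher in numbers 4 to 6 and 0 lower, with a median of 0.79. There 10.2% of all genes were called higher. Pnpla2 differed by 1.47, Adig by 1.72 and Bscl2 by 0.99 (edgeR, adjusted p = 2.11e-05, 0.00150 and 0.000224).

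Of the partners of lipoprotein lipase, 5 of 7 could be tested at 18 months. Angptl4, its inhibitor from fat, fell by 2.41, and Gpihbp1, which carries the enzyme across capillary endothelium, by 1.6 on the log2 scale (edgeR, adjusted p = 0.00141 and 0.000969). Sel1l, which with Lmf1 helps the enzyme mature in the endoplasmic reticulum, rose by 1.86 (edgeR, adjusted p = 0.000760). Lmf1 (-0.51) and Angptl8 (-0.19) were not called, at adjusted p = 0.0510 and 0.797, and the apolipoprotein genes Apoc2 and Apoc3 were too low to test. Between the sets of young males Angptl4 (1.61) and Lmf1 (0.88) were higher and Sel1l (-0.58) lower in numbers 4 to 6 (edgeR, adjusted p = 0.0103, 0.000669 and 0.0460), while Gpihbp1 (0.66), Angptl8 (0.35) and Apoc3 (2.64) were not called. The 4 genes for receptors of the hormones, Adipor1, Adipor2 and Cdh13 for adiponectin and Lepr for leptin, were called in 0 comparisons. At 18 months they differed by -0.07, -0.38, -0.72 and 0.04 (edgeR, adjusted p = 0.742, 0.0721, 0.342 and 0.943).

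Of the brown fat genes, 4 of 12 tested were called lower at 18 months and 1 higher, where 18.8% of all genes were called lower. Cidea, related to Cidec, fell by 3.55, the respiratory chain subunits Cox8b by 2.27 and Cox7a1 by 2.17, and the droplet protein Plin5 by 1.58 (edgeR, adjusted p = 0.0164, 0.0435, 0.0448 and 0.0214). The riser was Prdm16, a brown fat transcription factor, by 0.60 (adjusted p = 0.0320). Ucp1 stood at 41.3 ± 50.7 CPM at 18 months and 132 ± 29.0 CPM in numbers 4 to 6 (SD, n = 3 each), a change of -1.72 that was not called (edgeR, adjusted p = 0.297). Cox8b and Cox7a1 are also made by muscle. Between the sets of young males 5 of 13 were called higher in numbers 4 to 6 and 1 lower, where 10.2% of all genes were called higher. Cox7a1 differed by 3.34 and Cidea by 1.89 (edgeR, adjusted p = 0.000426 and 0.00261).

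From 2 to 8 months, 0 of the 10 genes were called in either sex, where 0.692% of all genes were called in males and 0.254% in females (edgeR). In males these were 78 higher and 50 lower, and 61 and 72 with scaling by library totals alone. DESeq2 called 489 and 267 genes and 1 of the 10, Lep in females. At an unadjusted p under 0.05 edgeR had 2158 and 1581 genes. In wild-type males the median of the 10 was 0.53 against numbers 1 to 3 and -0.58 against numbers 4 to 6. Adipoq in the 8-month males stood at 78.4, 95.9 and 98.4 CPM, above numbers 1 to 3 and under numbers 4 to 6. Lpl at 8 months stood at 224, 202 and 202 CPM, within or just above the 141 to 210.4 CPM of numbers 1 to 3 and under the 399 to 438 CPM of numbers 4 to 6. Against numbers 4 to 6, Cidec (-1.02) and Lpl (-1.0) were called lower (edgeR, adjusted p = 0.0230 and 0.00947), 2 of 10 where 8.38% of all genes were. Pck1, at 138, 236 and 164 CPM, was higher than in numbers 1 to 3 by 1.46 ± 0.50 and not called (SE; edgeR, adjusted p = 0.205). At 8 months wild-type males held summed liver genes of 350 to 565 CPM, with Alb at 154 to 314 CPM, against at most 1.51 CPM of Alb in numbers 1 to 3. Of 9 kidney genes tested 8 were higher at 8 months and 5 called, with a median of 4.54. The kidney list without Lrp2, which thyroid follicle cells make too, summed to 18.1 to 44.0 CPM at 8 months and at most 0.699 CPM in numbers 1 to 3. The part of liver and kidney transcripts in the Pck1 values was not tested.

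In wild-type females Lep stood at 20, 18.4 and 27.7 CPM at 2 months and 5.42, 1.62 and 7.58 CPM at 8 months. The groups did not overlap, and the change of -2.15 ± 0.50 (SE; edgeR, adjusted p = 0.0773) missed the threshold that DESeq2 passed (-2.16, adjusted p = 0.00165). Pck1 moved the other way in these thyroids, from 126, 42.2 and 77.2 CPM to 252, 302 and 144 CPM, a change of 1.53 ± 0.51 (SE; edgeR, adjusted p = 0.260). Kidney genes were higher at 8 months here too, 9 of 9 with 3 called and a median of 4.10, and summed without Lrp2 to 13.4 to 15.7 CPM against at most 1.05 CPM; their part was not tested. The other 8 genes changed by -0.36 to 0.75, Adipoq by 0.11 ± 0.28 and Plin1 by 0.00 ± 0.32 (SE). How many of all genes had groups apart, as Lep did, was not counted.

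FAD4T was compared with wild type in each sex and age. Of the 10 genes 0 were called in each of the 4 comparisons, by edgeR and by DESeq2. edgeR called 0.00% of all genes in 2-month males, 2-month females and 8-month males and 0.0216% in 8-month females. At an unadjusted p under 0.05 it had 2679, 3087, 335 and 862 genes, and DESeq2 called 102, 293, 0 and 77 genes. The median changes of the 10 were 0.62, 0.20, -0.44 and -0.02, against 0.02, -0.02, 0.01 and -0.01 over all genes.

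In males of 2 months the fold change was positive for 9 of 10 genes in FAD4T against wild types numbered 1 to 3, and 0 were called. For Cfd and Pck1 the CPM of the groups did not overlap, but how many of all genes were likewise apart was not counted. Cfd stood at 185, 505 and 375 CPM in FAD4T and 184, 152 and 144 CPM in wild type, so the lowest FAD4T thyroid was next to the highest wild type, with a change of 1.15 ± 0.34 (SE; edgeR, unadjusted p = 0.002886, adjusted p = 0.343). Pck1 stood at 89.5, 155 and 167 CPM against 69.3, 70.2 and 57.5 CPM, a change of 1.07 ± 0.50 (SE; edgeR, adjusted p = 0.343). Adipoq stood at 49.1, 116 and 78.8 CPM, and its lowest FAD4T thyroid was within the wild-type range. Against wild types numbered 4 to 6 the median was -0.56, all 10 were lower, and Cidec (-1.31) and Lpl (-0.70) were called (edgeR, adjusted p = 0.00407 and 0.0426), 2 of 10 where 11.4% of all genes were called lower. The direction thus turned for 9 of the 10 genes with the set used. The higher FAD4T males, numbers 2 and 3, are libraries with high thymocyte transcripts: the 9 thymocyte genes summed to 4.003 to 385 CPM in FAD4T against 1.65 to 2.63 CPM in wild type. Liver genes were higher in FAD4T for 10 of 10, with a median of 1.39 and 0 called, and muscle genes lower for 11 of 12. Without those libraries the median was 0.08, from 1 FAD4T mouse assumed to vary like the other groups, and the part of thymus, liver and muscle transcripts was not tested.

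In females of 2 months Lep stood at 8.57, 9.14 and 7.05 CPM in FAD4T and 20, 18.4 and 27.7 CPM in wild type. The ranges were apart, with a change of -1.42 ± 0.48 (SE; edgeR, adjusted p = 0.194). Pck1 stood at 180.2, 366 and 102 CPM against 126, 42.2 and 77.2 CPM and overlapped, with a change of 1.40 ± 0.50 (SE; edgeR, adjusted p = 0.209). Without FAD4T female number 3, the lowest FAD4T thyroid for both genes, Pck1 was called (1.73; edgeR, adjusted p = 0.0353), the fit then holding 2 FAD4T mice and calling 3001 genes, with 6.22% of all genes called higher. The remaining 8 genes changed by -0.39 to 0.58. How many of all genes had ranges apart, as Lep did, was not counted. Here too thymocyte genes differed, with sums of 2.72 to 235 CPM in FAD4T and 1.13 to 22.15 CPM in wild type, and 1 wild-type female had liver genes at 3355 CPM in sum, with Alb at 2424 CPM; their part was not tested.

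In males of 8 months 8 of 10 genes were lower in FAD4T, and 0 were called. For Adipoq, Cidec, Fabp4, Lpl and Pck1 the groups did not overlap. These and Plin1 were lower in FAD4T in all 3 pairs of same-numbered mice. How many of all genes showed either pattern was not counted. Adipoq stood at 43.2, 67.3 and 73.5 CPM in FAD4T and 78.4, 95.9 and 98.4 CPM in wild type, a change of -0.55 ± 0.28 (SE; edgeR, adjusted p = 1.0). Lpl stood at 147, 139 and 160 CPM against 224, 202 and 202 CPM and changed by -0.48 ± 0.25 (SE; edgeR, adjusted p = 1.0). With the replicate number as a block, Adipoq changed by -0.57 and Lpl by -0.47, again not called (edgeR, adjusted p = 0.313 for both). Pck1 stood at 37.1, 66.2 and 136 CPM against 138, 236 and 164 CPM, the largest change at -1.16 ± 0.50 (SE; edgeR, adjusted p = 1.0). Cidec changed by -0.62 and Fabp4 by -0.49, while Lep (0.47) and Retn (0.20) were the genes that were not lower. Brown fat genes were lower in FAD4T for 12 of 13, with a median of -0.64 and 0 called, and Ucp1 stood at 44.6 ± 35.7 against 131.7 ± 47.4 CPM (SD, n = 3 each). Muscle genes were higher for 12 of 12 and thymocyte genes for 9 of 9, 0 called in either list, with thymocyte sums of 1.56 to 76.1 CPM in FAD4T and 1.41 to 2.78 CPM in wild type. The part of these transcripts in the values was not tested.

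In females of 8 months the changes were -0.75 for Pck1, 0.54 for Lep and between -0.38 and 0.17 for the others, with overlapping ranges for Adipoq at 129, 84.4 and 111 CPM in FAD4T and 112, 120.1 and 93.7 CPM in wild type. The ranges of Pck1 overlapped as well, at 203.9, 77.7 and 132.6 CPM in FAD4T and 252.3, 301.7 and 144.2 CPM in wild type. In the same thyroids 8 of 9 kidney genes were lower in FAD4T, 2 of them called, with a median of -5.44, and the kidney sums without Lrp2 were 0.338 to 0.547 CPM against 13.4 to 15.7 CPM. Muscle genes were lower for 12 of 12, with sums of 22.8 to 70.7 CPM against 626 to 6321 CPM and 0 called. The part of kidney and muscle transcripts in the Pck1 values was not tested.

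Tests of whether the FAD4T effect differed between ages (in males and in females) or between sexes (at 2 and at 8 months) called 0 of the 10 genes, and 0.00% of all genes in each of the 4. Over the 40 tests of these genes edgeR's adjusted p was 0.564 to 1.0. DESeq2 called 16, 16, 33 and 9 genes and none of the 10, and at an unadjusted p under 0.05 edgeR had 922, 1520, 744 and 369 genes. For Pck1 the FAD4T difference was positive at 2 months, in males only against numbers 1 to 3, and negative at 8 months in both sexes, and the change of that difference, -2.22 ± 0.71 in males and -2.15 ± 0.71 (SE; edgeR, adjusted p = 0.736 and 0.564) in females, missed the threshold. Against numbers 4 to 6 the male difference was already negative at 2 months (-0.90), and its change with age was -0.27 (edgeR, adjusted p = 0.870).

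**Figure D3:**
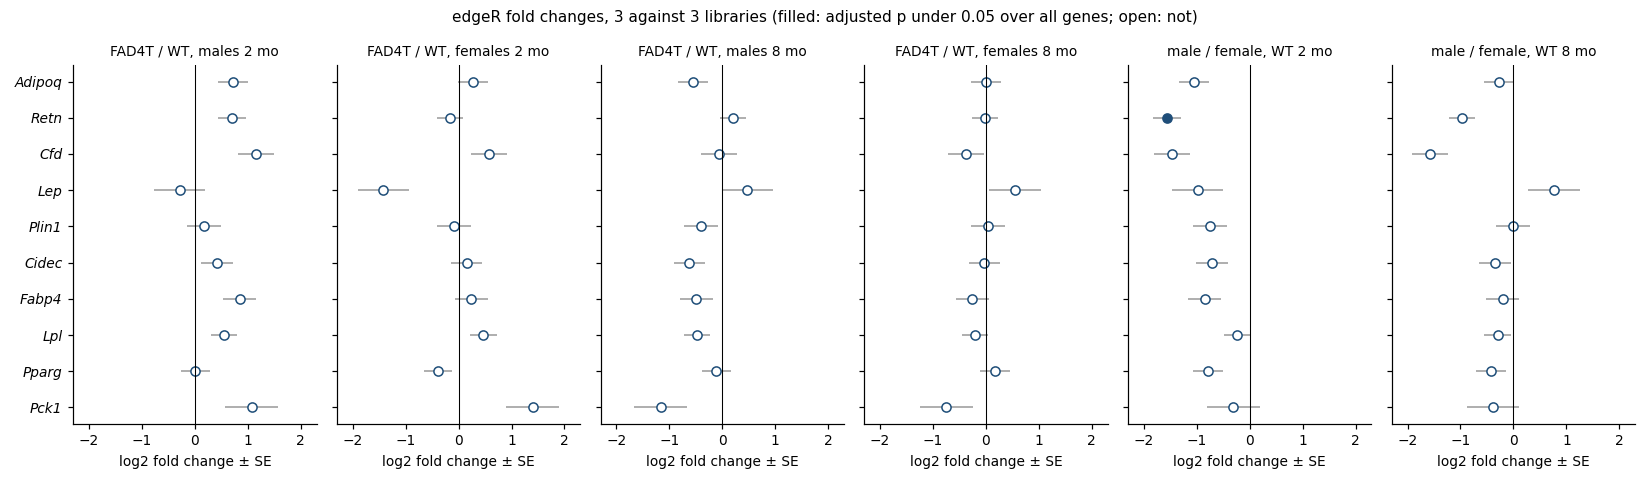
edgeR log2 fold change with its standard error for each gene in the 4 FAD4T comparisons and the 2 sex comparisons, 3 against 3 libraries; filled points have adjusted p under 0.05 over all genes. The single filled point is Retn at -1.56 in males against females of 2 months, and Lep (-1.42) and Pck1 (1.40) stand farthest from 0 in FAD4T females of 2 months.

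The sexes were compared in wild-type thyroids. At 2 months all 10 genes were lower in males numbered 1 to 3 than in females, with a median of -0.82 against -0.01 over all genes. Retn was the gene called, 1 of 10 where 0.0379% of all genes were called lower in males. It stood at 22.3, 25.9 and 17.3 CPM in males and 76.5, 54.2 and 61.9 CPM in females, a change of -1.56 ± 0.26 (SE; edgeR, adjusted p = 0.0136). The groups were apart, which was not counted over all genes. Yet the call was lost without male number 1 (adjusted p = 0.0822), male number 3 (0.149) or female number 1 (0.0957). With males numbered 4 to 6 in their place, the direction turned for 7 of the 10 genes and the median was 0.19. Retn was then not called (-0.41; edgeR, adjusted p = 0.304), and 3 genes were called higher in males, Cidec (1.02), Lpl (1.0) and Pck1 (1.64; edgeR, adjusted p = 0.0197, 0.00812 and 0.0356), where 9.20% of all genes were called higher. Retn, Lep (-0.87) and Pparg (-0.32) were lower in males with either set. With all 6 males the median was -0.24 and 0 of the 10 were called. Liver genes were lower in males numbered 1 to 3 for 10 of 10, with a median of -8.30, muscle genes for 12 of 12 and thymocyte genes for 8 of 9, 0 called in any of these lists. Female number 1 had 2424 CPM of Alb, the highest of this comparison, and the part of these transcripts was not tested. Of the further lists Agpat2, an acyltransferase of triglyceride synthesis (-1.13, adjusted p = 0.0412), and Elovl3, a brown fat fatty acid elongase (-3.41, adjusted p = 0.0136), were lower in males by edgeR, with no other lipid storage or brown fat gene called. Cfd changed by -1.47 and Adipoq by -1.05 (edgeR, adjusted p = 0.107 and 0.1254), and Cfd was called without female number 2 (-1.57, adjusted p = 0.0415) or number 3 (-1.63, adjusted p = 0.0296).

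At 8 months 9 of 10 genes were lower in males, with a median of -0.33 and 0 called where 0.270% of all genes were (edgeR; 941 genes had an unadjusted p under 0.05). Cfd stood at 216, 257 and 272 CPM in males and 922, 814 and 476 CPM in females, with no overlap and a change of -1.58 ± 0.34 (SE; edgeR, adjusted p = 0.0589). DESeq2 called it (adjusted p = 0.001003) among 96 genes, and so did edgeR without female number 3 (-1.81, adjusted p = 0.0459). Retn stood at 24.8, 29.5 and 30.7 CPM in males and 61.3, 53.6 and 50.0 CPM in females, with no overlap. Its change of -0.97 ± 0.25 (SE; edgeR, adjusted p = 0.208) was called with the replicate number as a block (adjusted p = 0.00659). Lep was the gene that was higher in males, by 0.76 ± 0.49 (SE). How many of all genes lacked overlap, as Cfd and Retn did, was not counted. Adipoq differed by -0.27 ± 0.28 and Plin1 by -0.01 ± 0.32 (SE), smaller in size than Retn and Cfd, a contrast between genes that was not tested.

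Across all groups, from low to high mean, Adipoq stood at 23.2 ± 8.25 CPM in males of 18 months, 49.5 ± 7.57 in wild-type males of 2 months numbered 1 to 3, 61.3 ± 16.0 in FAD4T males of 8 months, 81.2 ± 33.3 in FAD4T males of 2 months and 90.9 ± 10.9 in wild-type males of 8 months (SD, n = 3 each). It went on with 102 ± 16.0 in wild-type females of 2 months, 108 ± 22.3 in FAD4T and 108.5 ± 13.5 in wild-type females of 8 months, 123 ± 51.8 in FAD4T females of 2 months and 127 ± 4.32 CPM in wild-type males numbered 4 to 6 (SD, n = 3 each). Of the 9 pairs of neighbours in this order, 1 did not overlap, the lowest. The other genes ran from 18-month males at the bottom to various groups at the top, save Lep. For Fabp4 the order ran from 166 ± 69.8 CPM at 18 months to 941 ± 384 CPM in FAD4T females of 2 months, and for Pparg from 8.49 ± 4.09 CPM at 18 months to 26.6 ± 4.10 CPM in wild-type females of 2 months (SD, n = 3 each). Retn ran from 15.0 ± 6.65 to 64.2 ± 11.3 CPM, also highest in wild-type females of 2 months, and Cfd from 116 ± 43.5 to 737 ± 233 CPM, highest in wild-type females of 8 months (SD, n = 3 each). Males numbered 4 to 6 were highest for Lpl, 117 ± 60.6 to 418 ± 19.9 CPM, Plin1, 32.6 ± 20.4 to 99.8 ± 10.04 CPM, Pck1, 15.5 ± 7.42 to 254.9 ± 77.6 CPM, and Cidec, 23.1 ± 6.38 to 142 ± 12.8 CPM (SD, n = 3 each). For Cidec that group lay above its neighbour with no overlap. Lep was ordered otherwise: wild-type females of 8 months were lowest at 4.87 ± 3.02 CPM, males of 18 months next at 5.09 ± 3.72 CPM, and wild-type females of 2 months highest at 22.05 ± 4.98 CPM (SD, n = 3 each). Those 3 females lay above each of the other 27 libraries. How many of all genes had a group so apart from the others was not counted. For Retn, Plin1, Lpl and Pparg 0 of 9 neighbouring pairs were apart.

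Ratios between genes within a library do not depend on its total. Among females of 2 months, Lep relative to Adipoq was 0.185 to 0.242 in wild types and 0.0509 to 0.0907 in FAD4T mice. In males of 8 months it was the reverse, 0.0765 to 0.123 in wild type and 0.170 to 0.207 in FAD4T. In males of 2 months it was 0.124 to 0.312 in wild types numbered 1 to 3, 0.0733 to 0.121 in numbers 4 to 6 and 0.0915 to 0.134 in FAD4T. At 18 months it was 0.107 to 0.376, so Lep was not lower at 18 months in relation to Adipoq. Pck1 relative to Adipoq was lowest at 18 months, at 0.474 to 0.940, and in wild-type females of 2 months, at 0.503 to 1.16, and 1.48 to 2.61 in males numbered 4 to 6. Cidec relative to Plin1 was 1.39 to 1.46 in males numbered 4 to 6 and at most 1.20 in all other groups. These ratios were chosen after the levels were seen and were not tested.

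**Figure D4:**
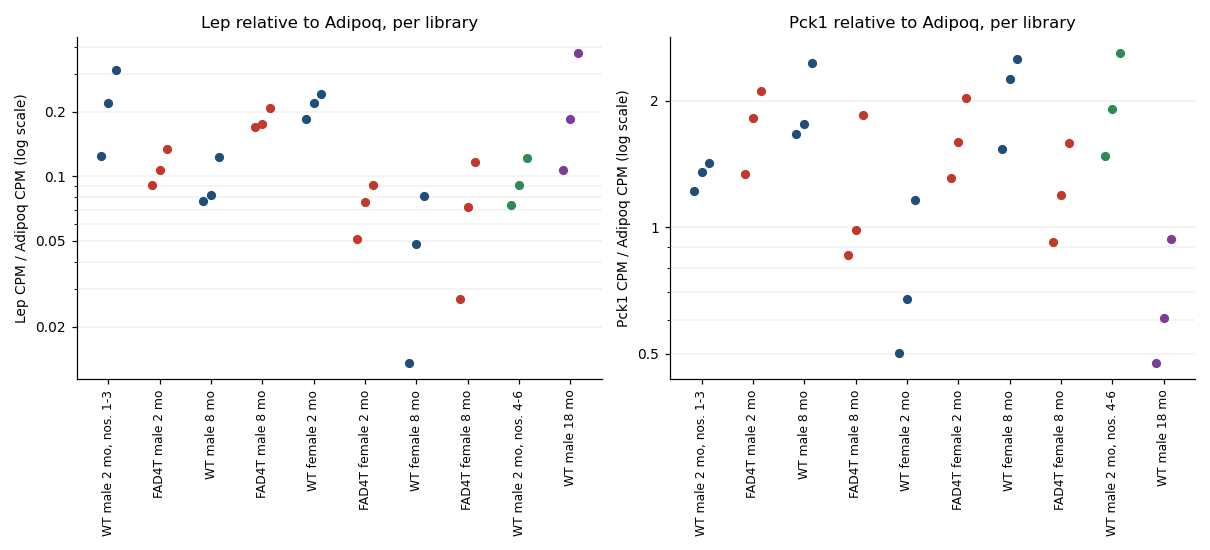
Ratio of Lep to Adipoq (left) and of Pck1 to Adipoq (right) in CPM for each library, on log scales, 3 points per group and colours as for the levels. On the left wild-type females of 2 months (0.185 to 0.242) lie above FAD4T females of 2 months (0.0509 to 0.0907). On the right 18-month males have the lowest mean (points at 0.474 to 0.940). They overlap other groups, among them wild-type females of 2 months (0.503 to 1.16).

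Outside the list, and among 11451 genes with a mean of at least 5 CPM, the genes most like the mean of the 10 over 30 libraries were Cdo1 (r = 0.97), the cysteine dioxygenase, Slc36a2 (0.96), an amino acid transporter, Lipe (0.96), the hormone-sensitive lipase, Adhfe1 (0.95), Adig (0.94), Acp5 (0.92), Aoc3 (0.91), an amine oxidase, and Nudt7 (0.90). Those most like Pck1 were Angptl4 (0.90), Cyp2e1 (0.88) and Arl4a (0.87). Those most like Lep were Hsd11b1 (0.77), which makes active glucocorticoid, Tmem120b (0.75) and Scd1 (0.74). These r are descriptions over libraries that share depth and scaling. Cdo1 stood at 59.8 ± 14.02 CPM at 18 months, 178.5 ± 29.0 CPM in males numbered 4 to 6 and 91.4 ± 20.3 CPM in numbers 1 to 3 (SD, n = 3 each), the order that Adipoq had. Ucp1 followed Adipoq less closely. In 18-month male number 3 Ucp1 stood at 99.4 CPM beside 24.9 CPM of Adipoq, and in number 1 at 6.07 beside 14.3 CPM.

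**Figure D5:**
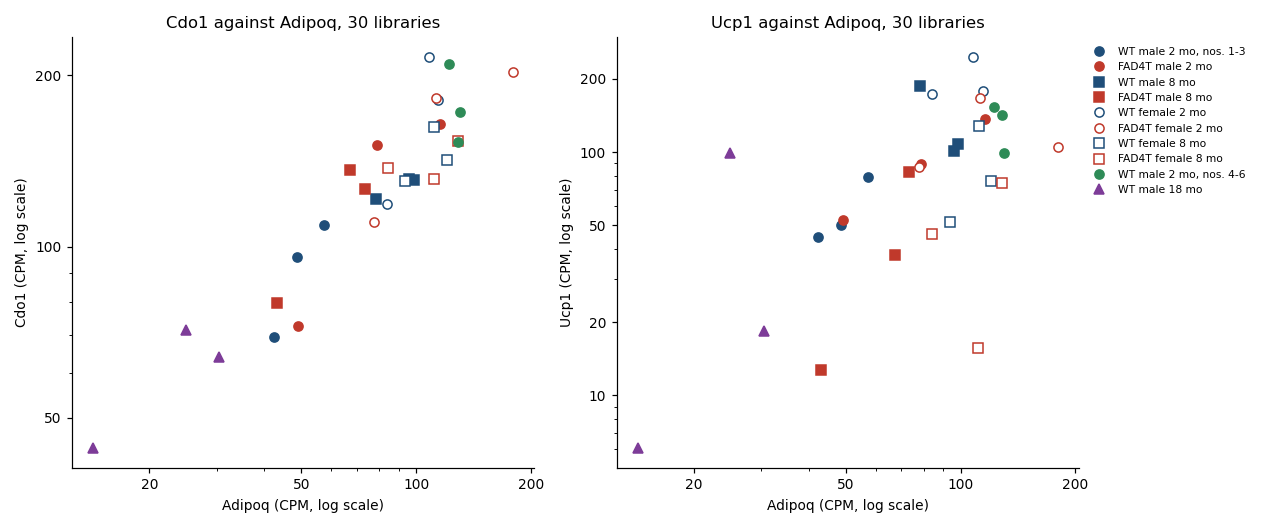
Cdo1 (left) and Ucp1 (right) against Adipoq in CPM, log axes, 1 point per library (circles 2 months, squares 8 months, triangles 18 months; open symbols females). Cdo1 rises with Adipoq along 1 line from the 18-month triangles upwards, while Ucp1 scatters, with an 18-month thyroid at 99.4 CPM of Ucp1 and 24.9 CPM of Adipoq.

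The genes lie apart in the genome (GRCm38, as in the count files, counted over exons): Adipoq (ENSMUSG00000022878) at chr16:23146536-23158028, Retn (ENSMUSG00000012705) at chr8:3655770-3660110, Cfd (ENSMUSG00000061780) at chr10:79890853-79892655, Lep (ENSMUSG00000059201) at chr6:29060220-29073877, Pck1 (ENSMUSG00000027513) at chr2:173153048-173159273, Lpl (ENSMUSG00000015568) at chr8:68880491-68907448 and Pparg (ENSMUSG00000000440) at chr6:115360951-115490399 on the plus strand. Plin1 (ENSMUSG00000030546) at chr7:79720218-79732903, Cidec (ENSMUSG00000030278) at chr6:113424634-113435760 and Fabp4 (ENSMUSG00000062515) at chr3:10204088-10208576 are on the minus strand.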

How the data were processed

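The deposited values are raw counts, the number of read pairs on each gene, made by the authors with featureCounts 1.6.0 over exons grouped by gene, with the Ensembl release 88 annotation of GRCm38 and no strand option, per the file headers. Libraries were poly(A)-selected, strand-keeping (dUTP) and paired-end, per the labels' protocols. Per the submitters' processing notes, the build was GRCm39 and the tools were HISAT2 2.0.4, StringTie 1.3.4d, edgeR, DESeq2 and cutadapt 1.9; this differs from the headers, so coordinates are those of the count files. Counting without strand leaves overlapping and antisense genes uncertain.

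Groups came from sample titles; the 2-month wild-type males numbered 4 to 6 were set with the 18-month males because the design lists that set apart. Of 50686 identifiers 50376 had a symbol, 0 of the library pairs compared were identical, and totals of 14083958 to 20256049 counts limit the precision for low genes. Tests used edgeR 4.0.16 in R 4.3.3: TMM (factors 0.843 to 1.23), filterByExpr with a minimum count of 10, robust glmQLFit, glmQLFTest and Benjamini-Hochberg adjustment over all genes at 0.05, with a prior count of 0.125. All 24 libraries of FAD4T mice and their wild types shared a fit (18493 genes, 16 residual degrees of freedom), the 6 of the ageing set apart (16283 genes, 4), and all 30 for the 2 sets of young males (18799 genes, 20). SE is the fold change over the square root of F. CPM were scaled over all 30 libraries, so ratios of CPM and fold changes from separate fits differ slightly. Promoter windows and gene names came from RefSeq and GENCODE tables.

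The 10 genes, the 14 lists (146 genes, all matched) and the tests were chosen with earlier results of these data known. Named beside the 10 were all hormone receptor and lipase partner genes, the 4 highest lipid storage genes per length with up to 3 of smallest p in a comparison, the 2 highest genes of other cell types with Ucp1 and Cidea, and the genes most like the 10; some are not reported here, and others were named because a count of them was 5 or fewer. Principal transcript lengths, and the other young males for sex at 2 months and for the interactions, were added after the data were seen. Same-numbered libraries deviated together (each correlation of their deviations over 0.1) in males of 8 months by genotype (0.45, 0.44 and 0.55). They did so in the sexes at 8 months too (0.37, 0.40 and 0.10, the last just over the limit). Pairing by number in these comparisons was inferred from the counts alone. The labels state no pairing, and the main tests were unpaired. The code was tested on simulated counts. Alternatives were DESeq2 1.42.0, other scalings, no filter, other sets of libraries, the number as a block and leaving out each library.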

Additional observations from a re-analysis of the deposited data

How the results depend on the processing

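Of 67 reversals among the single-gene values, 39 came with another choice of the 2-month wild-type males, and the cause was not tested. With numbers 4 to 6 in place of 1 to 3, FAD4T males of 2 months had 2 of the 10 genes called and a median of -0.56, and 9 genes reversed: Adipoq (-0.65), Retn (-0.46), Cfd (-0.50), Plin1 (-0.62), Cidec (-1.31), Fabp4 (-0.21), Lpl (-0.70), Pparg (-0.46) and Pck1 (-0.90). With all 6 the median was -0.24 and Adipoq (-0.14), Retn (-0.01), Plin1 (-0.30), Cidec (-0.72), Lpl (-0.23), Pparg (-0.27) and Pck1 (-0.25) reversed. For 8 against 2 months in males, numbers 4 to 6 gave 2 called, a median of -0.58 and reversed Adipoq (-0.48), Retn (-0.77), Cfd (-1.01), Plin1 (-0.06), Cidec (-1.02), Fabp4 (-0.64), Lpl (-1.0) and Pck1 (-0.51); all 6 gave a median of -0.30 and reversed Retn (-0.33), Cfd (-0.43), Cidec (-0.42), Fabp4 (-0.23) and Lpl (-0.53). For sex at 2 months, a choice made after seeing the data, numbers 4 to 6 gave 3 called, a median of 0.19 and reversed Adipoq (0.31), Cfd (0.17), Plin1 (0.03), Cidec (1.02), Fabp4 (0.21), Lpl (1.0) and Pck1 (1.64); all 6 gave 0 called, a median of -0.24 and reversed Cidec (0.43), Lpl (0.53) and Pck1 (1.0). At 18 months numbers 1 to 3 gave 1 called and a median of -0.85, and all 6 gave 3 called. Over all genes these swaps moved calls from 0 to 4513 and 59 (FAD4T), 128 to 3249 and 340 (8 months), 14 to 3814 and 280 (sex, 2 months) and 5840 to 859 and 1417 (18 months).

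Without the filter on low counts 5 of the 10 genes were called at 18 months, and the share of all genes called in that fit is not reported here. DESeq2 called 10 of the 10 at 18 months, 1 in females of 8 against 2 months, 3 for sex at 2 months and 1 for sex at 8 months. Over all genes it called 6259, 267, 271 and 96 in these comparisons. The cause of its differences from edgeR was not tested. Fits of only the compared groups called 2 genes in males of 8 against 2 months, 0 for sex at 2 months and 2 for sex at 8 months. The share of all genes called in that fit for sex at 8 months is not reported here. All 30 libraries called 0 for sex at 2 months. Without the 5 libraries of high thymocyte transcripts the median in FAD4T females of 2 months was -0.45, from fewer samples, and in FAD4T males of 2 months Plin1 (-0.49) and Pparg (-0.66) reversed. Pparg, at 0.01 there, also reversed without the filter (-0.01) and with all 30 libraries (0.00), and Lep reversed between the young male sets with library totals (-0.02). Scaling by library totals shifted the median of all genes to 0.18 and 0.13 in FAD4T males and females of 2 months and to -0.17 between the young male sets; the median of the 10 genes changed sign in females of 8 against 2 months, from 0.05 to -0.02, and in no other comparison.

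Leaving out 1 library at a time, the calls ranged from 7 to 9 and the median from -2.36 to -1.71 at 18 months; 6 to 7 and 1.09 to 1.37 between sets of young males; 0 to 2 and -1.15 to -0.61 for sex at 2 months; 0 to 1 and -0.44 to -0.19 for sex at 8 months; 0 to 1 and -0.12 to 0.40 in FAD4T females of 2 months; and 0 in the other comparisons, with medians of 0.35 to 0.78 and -0.52 to -0.25 in FAD4T males of 2 and 8 months, -0.24 to 0.04 in FAD4T females of 8 months, and 0.39 to 0.60 and -0.08 to 0.18 for 8 months in males and females. Sign changes of single genes gave ranges of -0.63 to 0.19 for Lep, -0.27 to 0.55 for Plin1 and -0.33 to 0.42 for Pparg in FAD4T males of 2 months; -0.17 to 0.39 for Retn in FAD4T males of 8 months; -0.75 to 0.07 for Lep and -0.24 to 0.41 for Pparg at 8 months in males; -0.01 to 0.21 for Adipoq and -0.20 to 0.15 for Plin1 at 8 months in females; -0.62 to 0.13 for Pck1 in the sexes at 2 months and -0.15 to 0.19 for Plin1 at 8 months; and -0.20 to 0.63 for Lep between the young male sets.

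With the replicate number as a block the calls were 4 in males of 8 against 2 months (Adipoq, Plin1, Cidec and Pck1), where the numbers did not pair the samples, and 1 for sex at 8 months, and Pparg reversed (0.06) in males of 8 against 2 months; the block changed no other count of calls among the 10 genes. Over all genes the block moved calls from 4 to 76 (FAD4T females of 8 months), 128 to 566 (8 months, males), 47 to 0 (8 months, females) and 50 to 144 (sex, 8 months). Fits of only the compared groups moved 4 to 0, 128 to 455, 47 to 1 and, for sex at 2 months, 14 to 4; no filter moved 128 to 78, and library totals 47 to 29. Leaving out 1 library moved 0 to at most 36 and 3001 in FAD4T males and females of 2 months, 4 to between 0 and 9, 128 to between 30 and 55, 47 to between 10 and 211, 14 to between 6 and 252, 50 to between 23 and 84, 5840 to between 3651 and 5470 and, for the young male sets, 4063 to between 2386 and 4335. No paired analysis was possible because the groups share no numbers for 18 against 2 months and for the sets of young males. Lep and Pparg had the lowest mean levels of the 10 genes, at 9.95 and 18.0 CPM. The SE did not follow the level alone. In FAD4T against wild-type males of 2 months it was 0.48 for Lep, 0.50 for Pck1 and 0.28 for Pparg.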
